A study of Mus musculus with 8 samples.

Results

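CD8+ T cells sorted from MC38 tumors, a transplanted mouse colon carcinoma, were compared 5 h after a whole-body dose of 5 Gy of ionizing radiation (IR) with the same cells from tumors of mice that received no IR. The comparison rests on 4 of the 8 arrays of the series (2 with IR, 2 without) and on every annotated gene, 18193 in all, each read by 1 probe set: the brightest over the 8 arrays among those that name only that gene. The mice were C57BL/6 females of 6 to 8 weeks carrying subcutaneous flank tumors, and neither group carried an engineered allele or received any other agent. Tumors were digested with Liberase TM and DNase I, CD8+ cells were enriched on a positive selection kit, and CD3+CD8+CD44+CD62L- cells (antigen-experienced, not naive) were sorted, each array holding the pooled cells of 4 mice. The other 4 arrays hold the same sorted phenotype from lymph nodes (LN), which were dissociated without enzymes, with IR and without. The radiation reached the whole animal, so tumor, stroma and T cells were all exposed.

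Radiation breaks DNA, the kinases that sense the breaks stabilize the transcription factor p53, and p53 binds response elements near its target genes. Those targets stop the cell cycle, limit growth signaling, feed back on p53 itself, start apoptosis, and adjust repair and metabolism. Lymphocytes, and naive ones above all, are known for dying by this route after modest doses of IR.

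The values are log2 intensities normalized by RMA, and a difference of 1 is a doubling. A gene is said to have risen or fallen where it differed by at least 1 in either direction with an adjusted p under 0.1 in limma's moderated test on all 8 arrays. Transcripts of the sort were high on all 4 tumor arrays: *Cd8a*, a chain of the CD8 coreceptor, read 12.63 and 12.67 without IR and 12.35 and 12.09 with IR (replicates 1 and 2), and *Cd44* read 11.87 and 11.88, and 12.00 and 12.06. Replicate arrays of tumor T cells correlated at 0.993 without IR and 0.992 with IR, with an SD of the difference between them of 0.271 in each group, against 0.420 and 0.566 in LN. With 2 arrays a group, their number limits the precision of every value.

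Transcripts of macrophages and monocytes were also bright in these sorted cells. Their list held 22 measured genes, none under the lower quartile of the arrays (5.54) on all 4 tumor arrays, and its mean level was 10.23 and 11.04 without IR and 8.98 and 10.31 with IR. *C1qc*, a complement subunit made by macrophages, read 10.70 and 11.48 without IR and 8.90 and 10.57 with it, and *Itgam*, the integrin chain of myeloid cells, read 8.65 and 9.82, then 6.86 and 8.83. The mean over the IR arrays was the lower one for the list and for both examples, but 0 of the 22 genes passed the test. On pooled bulk RNA, fewer cells of a type and less RNA per cell cannot be told apart. Replicate 2 with IR stood as high for this list as replicate 1 without IR.

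IR raised 17 of the 18193 genes in tumor T cells (0.0934%) and lowered 1 (0.0055%). The largest rises belonged to *Celf5*, *1700007K13Rik*, *9230114K14Rik*, *Dcxr*, *Slc19a2*, *Psrc1* and *Phlda3*, at log2 fold changes of 2.29 to 4.63, and the gene that fell was *Pprc1*. Of the 17 genes that rose, 8 were in 4 lists of p53 targets and 9 were in none. Absence from these lists does not show that a gene is no target of p53. In the fit to the 4 tumor arrays alone, whose spread does not include that of the LN arrays, 105 genes passed upward (0.577%) and 68 downward (0.374%), all 18 genes among them. With array weights on all 8 arrays 104 passed upward and 96 downward, so the balance of rises to falls varied with the fit. An unadjusted p under 0.05 was reached by 3023 of all genes (16.6%) on 8 arrays, the share against which the counts at that limit in each list are to be read. Leaving out any 1 of the 4 tumor arrays left 0 genes past limma's adjusted threshold (757 to 2389 at an unadjusted p under 0.05), although all 18 kept their direction and a difference of at least 1 each time. Both IR arrays lay above both arrays without IR for 41.4% of all genes and below them for 26%, so that an order of the arrays alone sets few genes apart.

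**Figure D1:**
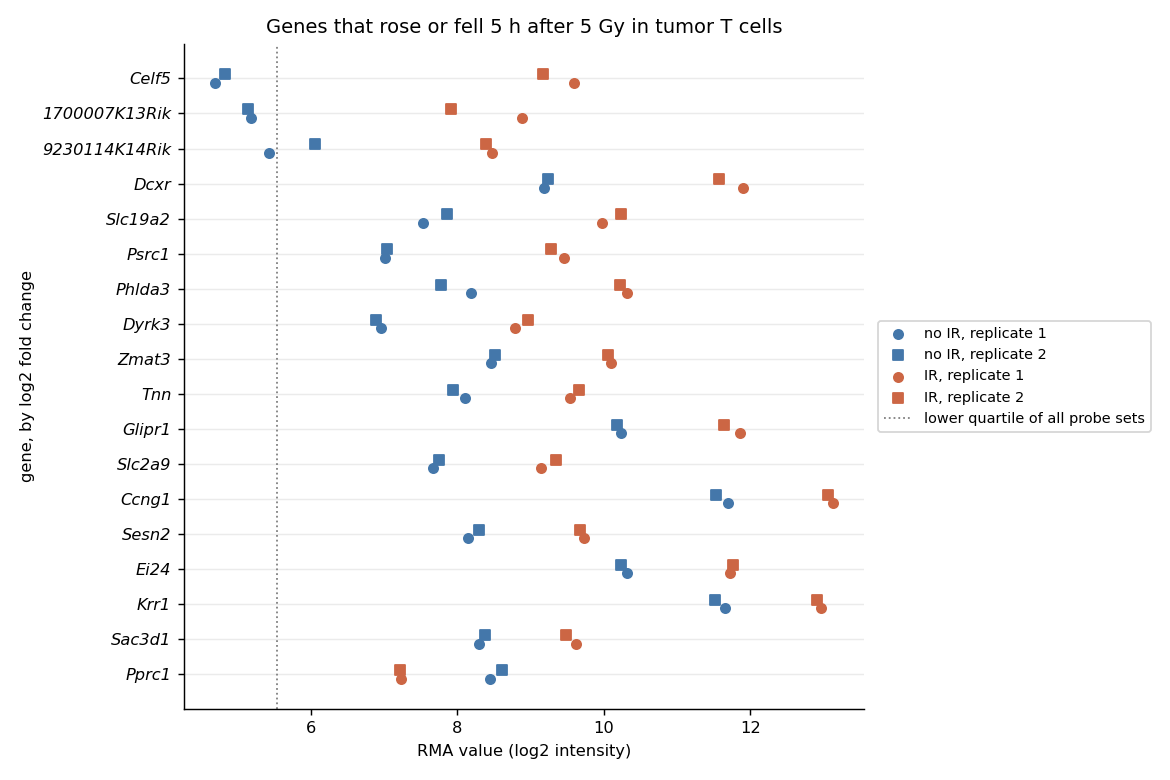
RMA values (log2 intensity, horizontal) of the 18 genes that rose or fell, on each of the 4 tumor arrays (blue, no IR; orange, IR; circles, replicate 1; squares, replicate 2), with genes ordered by log2 fold change; the dotted line is the lower quartile of all probe sets, 5.54. For every gene the IR arrays lie to one side of the arrays without IR, and *Celf5* and *1700007K13Rik* start from under the dotted line.

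The lists of p53 targets held 66 measured genes, and 8 of them rose and 0 fell. Their median log2 fold change was 0.67, against 0.09 over all genes, and 52 of the 66 values were above 0, against 59.7% of all genes. In the fit to the tumor arrays alone 26 of the 66 passed, all upward. The lists were written for this work with earlier results of these data known, so their counts are a description.

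As several genes moved together, the letters of a p53 response element were looked for in the 250 bases before each RefSeq gene start. The letters were the 20-base consensus of adjoining decamers, searched on both strands with at most 2 mismatches. A gene can have several starts (72 windows for 55 p53 list genes), and distances below are to the start of the window shown. The letters stood before at least 1 start in 6 of 55 p53 list genes with a window. The same held for 1 of 15 genes that rose or fell, 0.816% of the measured genes with a window and 0.661% of all windows. The 6 are shown because they range from a large IR difference to none, with the matching 20 bases in capitals. The sequences are those of RefSeq (GRCm38.p6), 5′ to 3′ on the strand of the gene.
Ccng1: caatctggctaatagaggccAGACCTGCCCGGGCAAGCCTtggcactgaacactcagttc
Cdkn1a: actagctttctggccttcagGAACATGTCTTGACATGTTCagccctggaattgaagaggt
Rps27l: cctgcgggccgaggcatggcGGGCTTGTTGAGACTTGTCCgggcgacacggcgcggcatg
Cd80: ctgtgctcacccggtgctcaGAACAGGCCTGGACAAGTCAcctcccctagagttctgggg
Ckap2: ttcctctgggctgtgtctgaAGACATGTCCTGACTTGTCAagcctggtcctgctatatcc
Zfp365: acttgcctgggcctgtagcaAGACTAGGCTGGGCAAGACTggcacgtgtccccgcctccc

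The *Ccng1* stretch lies at chr11:40755442-40755501 on the minus strand, with its match 195 to 176 bases before the start and 1 mismatch. That of *Cdkn1a* lies at chr17:29090908-29090967 on the plus strand, 51 to 32 bases before the start, with 1 mismatch, and that of *Rps27l* at chr9:66946276-66946335 on the plus strand, 117 to 98 bases before it, also with 1. The matches of *Cd80* (chr16:38458802-38458861, plus strand), *Ckap2* (chr8:22185983-22186042, minus strand) and *Zfp365* (chr10:67912686-67912745, minus strand) hold 2 mismatches each. In tumor T cells *Ccng1* rose by 1.49 on the log2 scale, whereas the differences of the other 5 did not pass: 2.99 for *Zfp365*, 1.95 for *Cdkn1a*, 1.27 for *Cd80*, 0.50 for *Rps27l* and -0.05 for *Ckap2*. A match of letters is a description of the window.

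Targets that halt the cycle or feed back on growth and p53 gave 5 of the 8 p53 list genes that rose. Of 24 measured, 5 rose and 0 fell, the median was 0.96, and 12 passed in the tumor arrays alone. *Phlda3*, which restrains the kinase Akt, read 8.18 and 7.78 without IR and 10.32 and 10.22 with IR (log2 fold change 2.29, SE 0.18, adjusted p = 0.0301). *Psrc1*, a spindle protein, read 7.01 and 7.03, then 9.45 and 9.28 (2.34, SE 0.17, adjusted p = 0.0301). In these 2 genes the groups lay far apart beside the gaps between replicates, the widest of which was that of *Phlda3* without IR.

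*Ccng1*, cyclin G1, was already bright without IR, at 11.69 and 11.53, and read 13.13 and 13.06 with IR. It rose by 1.49 (SE 0.14, adjusted p = 0.0301), and its 3 probe sets all rose, by 1.49 to 2.26. *Zmat3*, a zinc finger protein that binds RNA, went from 8.46 and 8.52 to 10.10 and 10.05 (1.59, adjusted p = 0.0512). *Sesn2*, a sestrin that holds back mTORC1, read 8.14 and 8.29 without IR and 9.73 and 9.68 with IR (1.49, adjusted p = 0.0976), close to the limit of the test.

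*Cdkn1a*, the gene of p21, which blocks cyclin-dependent kinases, was the target in which replicates without IR lay furthest apart among those with large values: 9.60 and 10.45 without IR, 11.93 and 12.02 with IR (1.95, adjusted p = 0.138). *Trp53inp1*, which acts with p53 in its stress response, read 9.55 and 9.92, then 11.18 and 11.49 (1.60, adjusted p = 0.126). Neither passed on 8 arrays, and both passed on the tumor arrays alone, as did *Gtse1* (1.43), *Ptp4a3* (1.28), *Pvt1* (1.27), *Plk2* (1.26) and *Ddit4* (1.02). In each of these 7 genes both IR arrays lay above both arrays without IR, as for 41.4% of all genes. This order adds little to their having passed on the same arrays.

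The regulators of p53 itself had smaller values. *Mdm2*, the ubiquitin ligase that degrades p53, read 10.58 and 10.65 without IR and 11.60 and 11.46 with it (0.91, adjusted p = 0.216), *Ppm1d*, a phosphatase that ends the damage signal, differed by 0.66, and *Mdm4* by 0.57. *Btg2*, an antiproliferative target, was bright without IR and did not pass, at 10.81 and 11.28 against 10.97 and 10.90. *Sesn1*, the sestrin related to *Sesn2*, lay on the other side of 0, at 8.61 and 8.60 without IR and 7.39 and 7.92 with IR (-0.95, adjusted p = 0.280), with 3 of its 4 probe sets below 0. The members of this group thus ranged from -0.95 to 2.34.

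**Figure D2:**
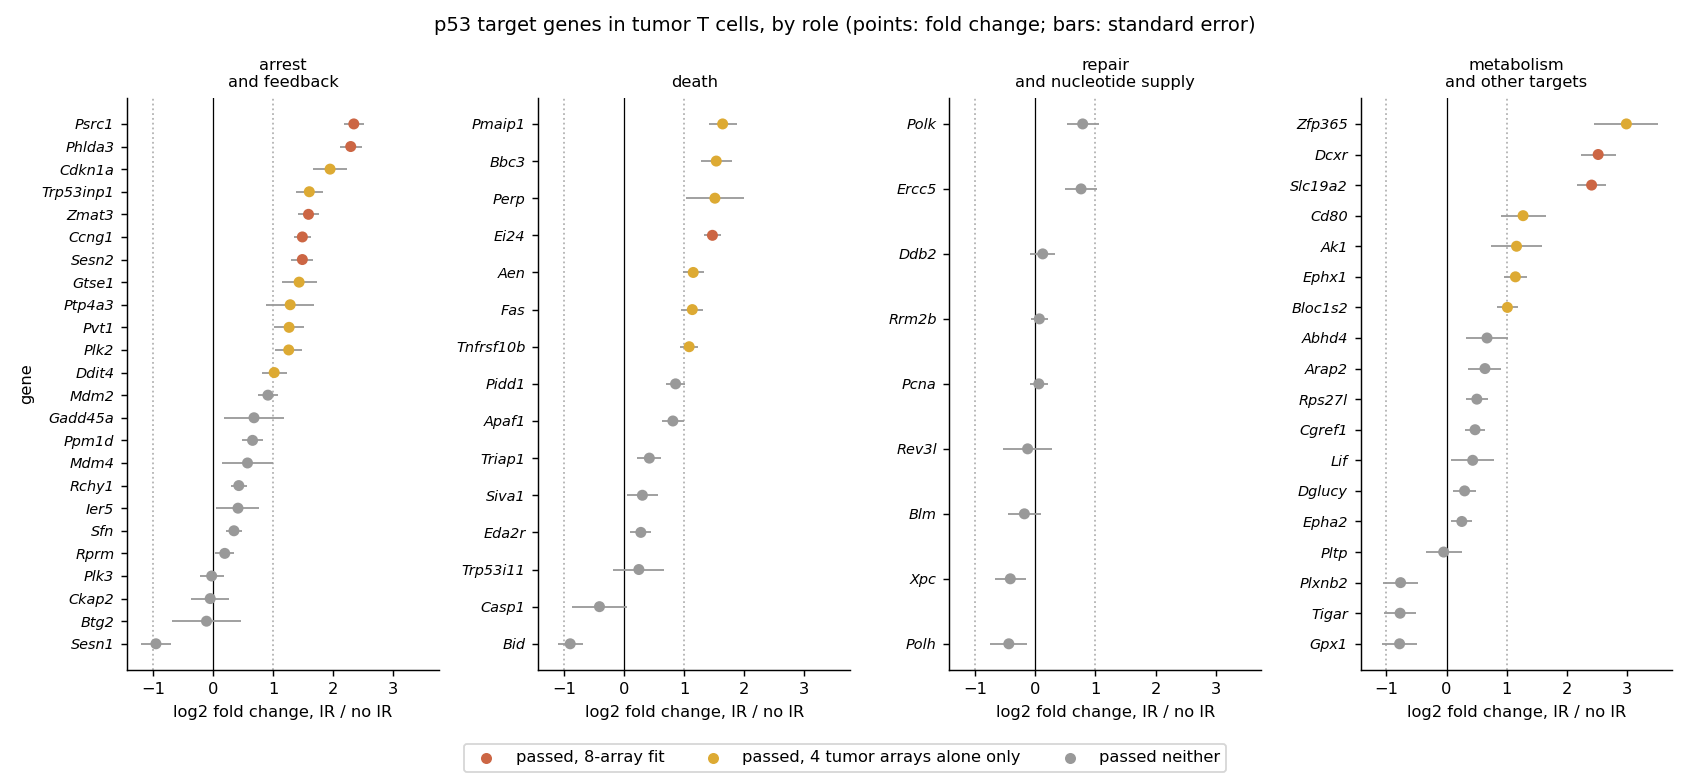
Log2 fold change (IR against no IR, tumor T cells; points, with bars for the standard error of the 8-array fit) of the 66 measured p53 targets in 4 groups by role; dotted lines mark 1 and -1. Orange genes passed on 8 arrays (5, 1, 0 and 2 per group), yellow ones passed on the tumor arrays alone, and the repair genes lie between -0.44 and 0.79 with none past the test.

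Of 15 measured p53 targets of apoptosis 1 rose and 0 fell, with a median of 0.85, and 7 passed on the tumor arrays alone. The gene that rose was *Ei24*, a protein of the endoplasmic reticulum with a part in growth suppression and autophagy: 10.32 and 10.24 without IR, 11.73 and 11.77 with IR (1.47, SE 0.14, adjusted p = 0.0301). The BH3-only genes that open the mitochondrial route, *Pmaip1* (Noxa) and *Bbc3* (Puma), had larger differences that did not pass on 8 arrays. *Pmaip1* read 9.20 and 9.24, then 10.75 and 10.97 (1.64, adjusted p = 0.131), and *Bbc3* read 7.55 and 7.49, then 8.97 and 9.13 (1.53, adjusted p = 0.211). Both passed on the tumor arrays alone.

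The death receptors followed at about 1. *Tnfrsf10b*, the mouse TRAIL receptor, read 7.01 and 7.03 without IR and 8.04 and 8.16 with it (1.08, adjusted p = 0.136), and *Fas* read 5.97 and 6.26, then 7.37 and 7.12 (1.13, adjusted p = 0.195). *Aen*, a nuclease of apoptotic cells, differed by 1.15 and *Perp*, a membrane protein, by 1.51, and these 4 also passed on the tumor arrays alone. *Apaf1*, the scaffold of the apoptosome, differed by 0.81 and *Pidd1* by 0.85, both under the fold limit. *Bid*, which links death receptors to mitochondria, read 9.36 and 9.14 without IR and 8.36 and 8.34 with IR (-0.90, adjusted p = 0.268), with its 3 probe sets all below 0.

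Outside the p53 lists the machinery of apoptosis did not pass in either direction. Of 11 measured genes of the BCL2 family and 12 caspases and their regulators 0 rose and 0 fell, with 1 and 3 at an unadjusted p under 0.05 by limma and 0 in either list on the tumor arrays alone. *Bcl2*, the survival protein, read 12.53 and 12.33 without IR and 12.05 and 12.16 with IR (-0.32, adjusted p = 0.722), and *Mcl1* read 12.13 on both arrays without IR and 12.01 and 12.47 with IR (0.11, adjusted p = 0.791). The values of these families lay between -0.67 and 0.52.

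The p53 targets of DNA repair and nucleotide supply stood apart from the others by their size. Of 9 measured, 0 rose and 0 fell, 2 had an unadjusted p under 0.05, 0 passed on the tumor arrays alone, and their median of 0.06 was no higher than that of all genes. *Pcna*, the sliding clamp of replication, read 12.59 and 12.63 without IR and 12.61 and 12.73 with IR (0.06, adjusted p = 0.869). *Ddb2*, which recognizes ultraviolet lesions, differed by 0.12 and *Rrm2b*, the p53-inducible subunit of ribonucleotide reductase, by 0.07. The higher values belonged to *Polk*, a translesion polymerase (0.79, adjusted p = 0.298), and *Ercc5*, an excision nuclease (0.76, adjusted p = 0.303). In the wider list of damage sensing and break repair 0 of 27 genes passed (4 at an unadjusted p under 0.05 by limma, near the share of all genes, and 0 on the tumor arrays alone), with values from -0.83 (*Lig4*) to 0.76 (*Xrcc6*).

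Among 18 measured targets of metabolism and other functions 2 rose and 0 fell, with a median of 0.57, and 7 passed on the tumor arrays alone. *Dcxr*, a xylulose reductase, read 9.19 and 9.24 without IR and 11.90 and 11.58 with IR (2.52, SE 0.29, adjusted p = 0.0768). *Slc19a2*, a thiamine transporter, read 7.53 and 7.86, then 9.98 and 10.24 (2.41, SE 0.25, adjusted p = 0.0475), and its 3 probe sets all rose. *Zfp365*, a zinc finger protein of stalled replication forks, had the largest value of any p53 target, at 7.0 and 6.83 against 9.96 and 9.85, and did not pass on 8 arrays (2.99, SE 0.53, adjusted p = 0.216), while on the 4 tumor arrays alone its adjusted p was 0.00723. *Tigar*, which lowers glycolytic flux (-0.77), and *Gpx1*, a glutathione peroxidase (-0.78), had values below 0 that did not pass (adjusted p = 0.300 and 0.308).

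*Celf5*, an RNA-binding protein of the CELF family and in none of the p53 lists, had the largest rise of all, from 4.68 and 4.82 without IR to 9.59 and 9.16 with IR (4.63, SE 0.33, adjusted p = 0.0301). *1700007K13Rik*, an uncharacterized gene, read 5.19 and 5.14, then 8.88 and 7.91 (3.23, adjusted p = 0.0468). Both started below the lower quartile of all probe sets (5.54), where a level is not shown to exceed background, so these folds have no exact size. *9230114K14Rik*, also uncharacterized, read 5.42 and 6.05 without IR and 8.48 and 8.40 with IR (2.70, adjusted p = 0.0512).

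*Dyrk3*, a kinase that dissolves stress granules, rose from 6.96 and 6.89 to 8.78 and 8.97 (1.95, SE 0.17, adjusted p = 0.0301). *Slc2a9*, a urate transporter, rose from 7.66 and 7.75 to 9.14 and 9.35 (1.54, adjusted p = 0.0976). *Sac3d1*, a centrosomal protein, rose from 8.30 and 8.38 to 9.62 and 9.48 (1.21, adjusted p = 0.0976). The last 2 passed by a small margin.

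*Krr1*, a factor of the small ribosomal subunit, and *Glipr1*, a secreted-type CAP protein, are neighbours whose annotated spans overlap by 2983 bases in RefSeq (GRCm38.p6), so their signals are uncertain as separate measurements. *Krr1* read 11.65 and 11.51 without IR and 12.97 and 12.92 with IR (1.36, adjusted p = 0.0768). *Glipr1* read 10.23 and 10.19, then 11.86 and 11.65 (1.54, adjusted p = 0.0301). All 4 probe sets of *Krr1* and both of *Glipr1* lay above 0.

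*Tnn*, which encodes the matrix protein tenascin N, read 8.11 and 7.94 without IR and 9.53 and 9.66 with IR (1.57, SE 0.14, adjusted p = 0.0301). It is a gene of connective tissue rather than of T cells, and 1 probe set reads it here. On the LN arrays *Tnn* read 8.10 and 8.01 without IR and 7.99 and 8.04 with IR, near the tumor values without IR. The mean of 16 fibroblast markers in tumor was 8.85 and 8.61 without IR and 9.07 on both IR arrays. On the LN arrays it was 6.33 and 6.53 without IR and 6.28 and 6.22 with IR. Of the 16 log2 fold changes in tumor 14 were above 0, against 59.7% of all genes. Still, 0 passed on 8 arrays and 1, *Postn*, passed on the tumor arrays alone (5.65 and 7.17 against 7.78 and 8.28). *Col1a1*, a collagen, read 8.29 and 8.30, then 8.71 and 9.14 (0.63, adjusted p = 0.287). *Mmp2*, a bright member of the list, was among the 2 below 0, at 11.54 and 11.28, then 11.23 and 11.16 (-0.21, adjusted p = 0.540). The part of such cells in the value of *Tnn* was not tested.

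2 further genes were among the largest rises by value without passing on 8 arrays, and both passed on the tumor arrays alone. *Ddias*, a suppressor of apoptosis after DNA damage, read 7.92 and 8.17 without IR and 10.48 and 10.56 with IR (2.47, adjusted p = 0.139). *Tnfsf4*, the OX40 ligand, read 6.24 and 6.72, then 8.60 and 8.55 (2.09, adjusted p = 0.216). *Cd80*, a costimulatory ligand counted among the p53 targets, read 8.64 and 8.80, then 10.08 and 9.92 (1.27, adjusted p = 0.289).

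*Pprc1*, a coactivator of the PGC-1 family that MYC induces and that drives mitochondrial and growth genes, was the gene that fell, from 8.45 and 8.61 without IR to 7.23 and 7.21 with IR (-1.31, SE 0.15, adjusted p = 0.0861). It no longer passed with a mean-variance trend (adjusted p = 0.132) or with scaling to T cell identity genes (-1.03, adjusted p = 0.182), nor when any 1 tumor array (adjusted p = 0.427 to 0.836) or either LN array without IR (0.180) was left out. It is 1 of 26 measured genes of the list for MYC and ribosome biogenesis, of which 0 rose, 1 fell and 25 did not pass. The median of the list was -0.58 against 0.09 over all genes, and with T cell scaling -0.30 against 0.37. An unadjusted p under 0.05 was reached by 12 members, against 16.6% of all genes. For 23 of 26 both IR arrays lay below both arrays without IR, against 26% of all genes and 43.6% of those brighter than the median gene.

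*Myc* itself read 9.79 and 9.64 without IR and 8.32 and 8.48 with IR (-1.31, adjusted p = 0.296), and *Srm*, spermidine synthase and a MYC target, read 9.40 and 9.45, then 8.31 and 8.29 (-1.12, adjusted p = 0.329). These 2 passed with *Pprc1* on the tumor arrays alone. *Polr1b*, a subunit of RNA polymerase I, differed by -0.96 and missed the fold limit. *Npm1*, the brightest of the list, stood on the other side of 0 (0.21). The mean level of the list was 9.74 and 9.76 without IR and 9.16 and 9.24 with IR, a spread between replicates far smaller than that of the macrophage markers on the same arrays.

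**Figure D3:**
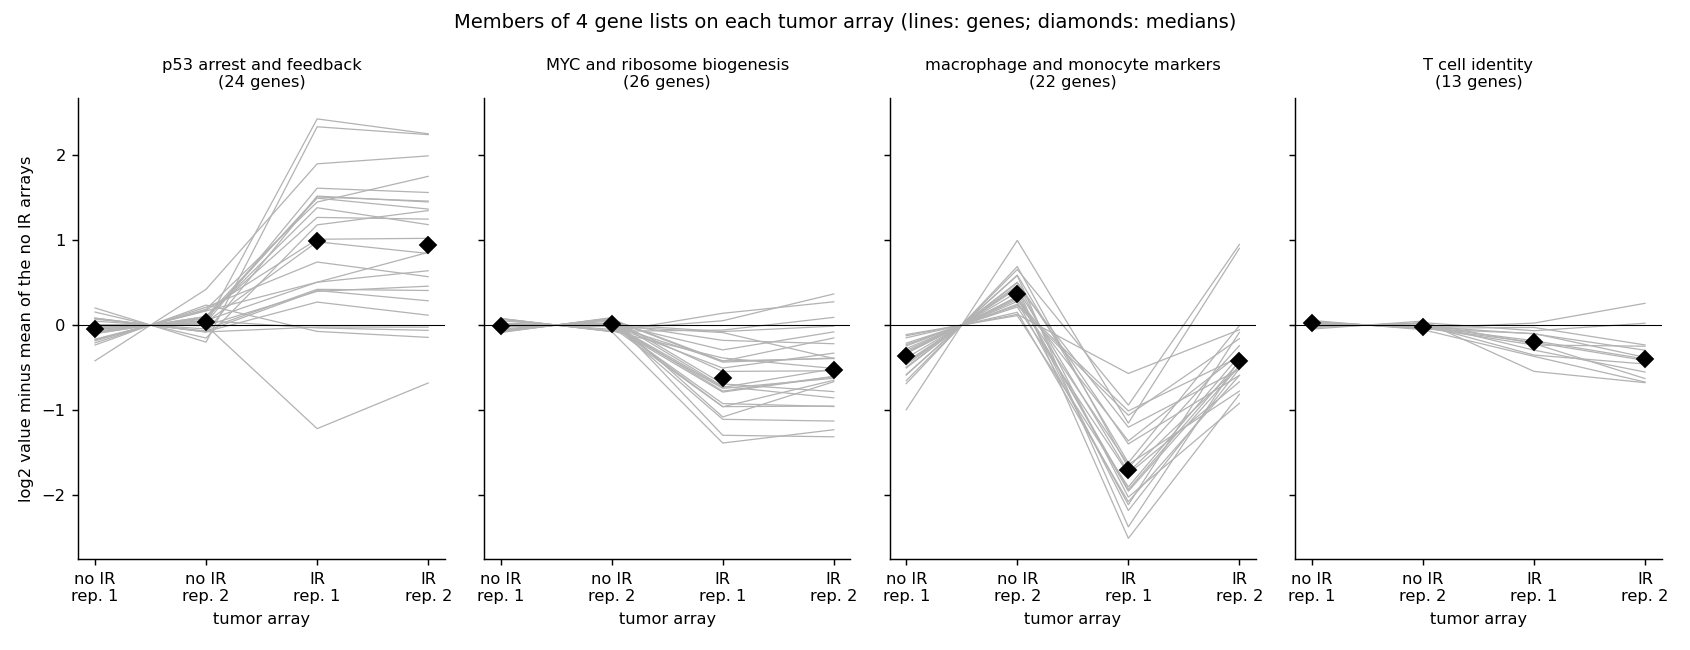
Value of each gene on each of the 4 tumor arrays minus its mean on the arrays without IR (log2 units), for 4 gene lists; lines join the values of 1 gene and diamonds are medians. The p53 targets of arrest and the MYC list separate IR from no IR with close replicates, while the macrophage list differs as much between replicates as between groups.

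*Ung*, which removes uracil from DNA, had the lowest value of the list for DNA replication, at 9.36 and 9.53 without IR and 7.53 and 7.97 with IR (-1.70, adjusted p = 0.250), and passed on the tumor arrays alone. It was the only one of 28 replication genes to do so, and on 8 arrays 0 of the 28 passed (2 at an unadjusted p under 0.05 by limma). Among 29 genes of mitosis 0 passed, 0 had an unadjusted p under 0.05 and 0 passed on the tumor arrays alone. *Cdc20*, an activator of the anaphase ligase, read 10.25 and 10.18, then 9.59 and 9.55 (-0.65, adjusted p = 0.511), and *Cdk1* differed by -0.60. At 5 h the transcripts of the cycle machinery thus showed no difference that passed, with values from -0.65 to 0.47 for mitosis.

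The effector genes of CD8+ T cells gave no call in either direction. Of 16 genes of the cytotoxic granule, 15 cytokines and chemokines, 13 inhibitory receptors, 12 costimulatory receptors, 20 transcription factors of memory and effector cells and 12 genes of tissue retention, 0 rose and 0 fell by limma, with 0, 6, 0, 3, 1 and 2 at an unadjusted p under 0.05 and 0 on the tumor arrays alone. *Gzmb*, granzyme B, read 12.27 and 12.78 without IR and 12.14 and 12.34 with IR (-0.29, adjusted p = 0.758). *Ifng*, interferon gamma, read 12.47 and 12.41, then 12.53 and 12.07 (-0.14, adjusted p = 0.953). *Pdcd1*, which encodes PD-1, read 11.39 and 11.29, then 11.12 and 10.90 (-0.33, adjusted p = 0.822). A value that missed the threshold on 2 arrays a group does not show that a gene was the same in both.

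Across these lists the larger values lay on both sides of 0, whereas the lists of cytokines and chemokines and of tissue retention leaned downward. Of the 15 cytokines and chemokines 11 were below 0 and 4 above, with a median of -0.40 against 0.09 over all genes. Of the 12 retention genes 9 were below 0 and 3 above, with a median of -0.38. The 6 cytokine and chemokine genes at an unadjusted p under 0.05 by limma were 40% of their list, against 16.6% of all genes. For 9 of the 15 both IR arrays lay below both arrays without IR, against 26% of all genes. Among genes brighter than the median gene that share was 43.6%. The same held for 5 of the 12 retention genes (41.7%). For 3 genes of each list they lay above, against 41.4% of all genes. *Ccl3*, a chemokine of activated T cells, read 11.58 and 11.55 without IR and 11.05 and 10.23 with IR (-0.92, adjusted p = 0.325). *Cxcr3*, a receptor that guides T cells into inflamed tissue, read 10.54 and 10.76, then 9.65 and 9.83 (-0.91, adjusted p = 0.216), and *Cxcr6*, a receptor of resident T cells, read 12.40 and 12.35, then 11.85 and 11.69 (-0.60, adjusted p = 0.303). *Cxcr4*, the receptor of CXCL12 and the brightest of the retention list, read 10.63 and 11.43, then 11.45 and 12.12 (0.75, adjusted p = 0.373). *Ctla4*, an inhibitory receptor, read 9.65 and 10.00, then 10.46 and 10.77 (0.79, adjusted p = 0.463), and *Id3*, a transcription regulator of memory cells, read 6.97 and 6.91, then 7.62 and 7.66 (0.70, adjusted p = 0.298). In these 3 genes both IR arrays lay above both arrays without IR, as for 41.4% of all genes. The margin was small for *Cxcr4*. *Cd69*, which keeps T cells in tissue, stood at 11.27 and 11.24, then 11.47 and 11.75 (0.36, adjusted p = 0.373).

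Stress programs other than that of p53 did not pass either. Of 11 heat shock genes, 14 of ER and integrated stress, 13 antioxidant genes, 20 of hypoxia and glycolysis, 13 of NF-kB, 18 immediate early genes and 21 interferon-stimulated genes, 0 rose and 0 fell on 8 arrays (1, 2, 1, 5, 1, 2 and 1 at an unadjusted p under 0.05 by limma), and on the tumor arrays alone *Mx1* and *Myc* passed. *Mx1*, an antiviral GTPase, read 6.61 and 7.02 without IR and 8.01 and 8.21 with IR (1.29, adjusted p = 0.275). *Nfkbia*, the inhibitor of NF-kB, read 13.39 and 13.24, then 14.17 and 14.21 (0.87, adjusted p = 0.275).

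**Figure D4:**
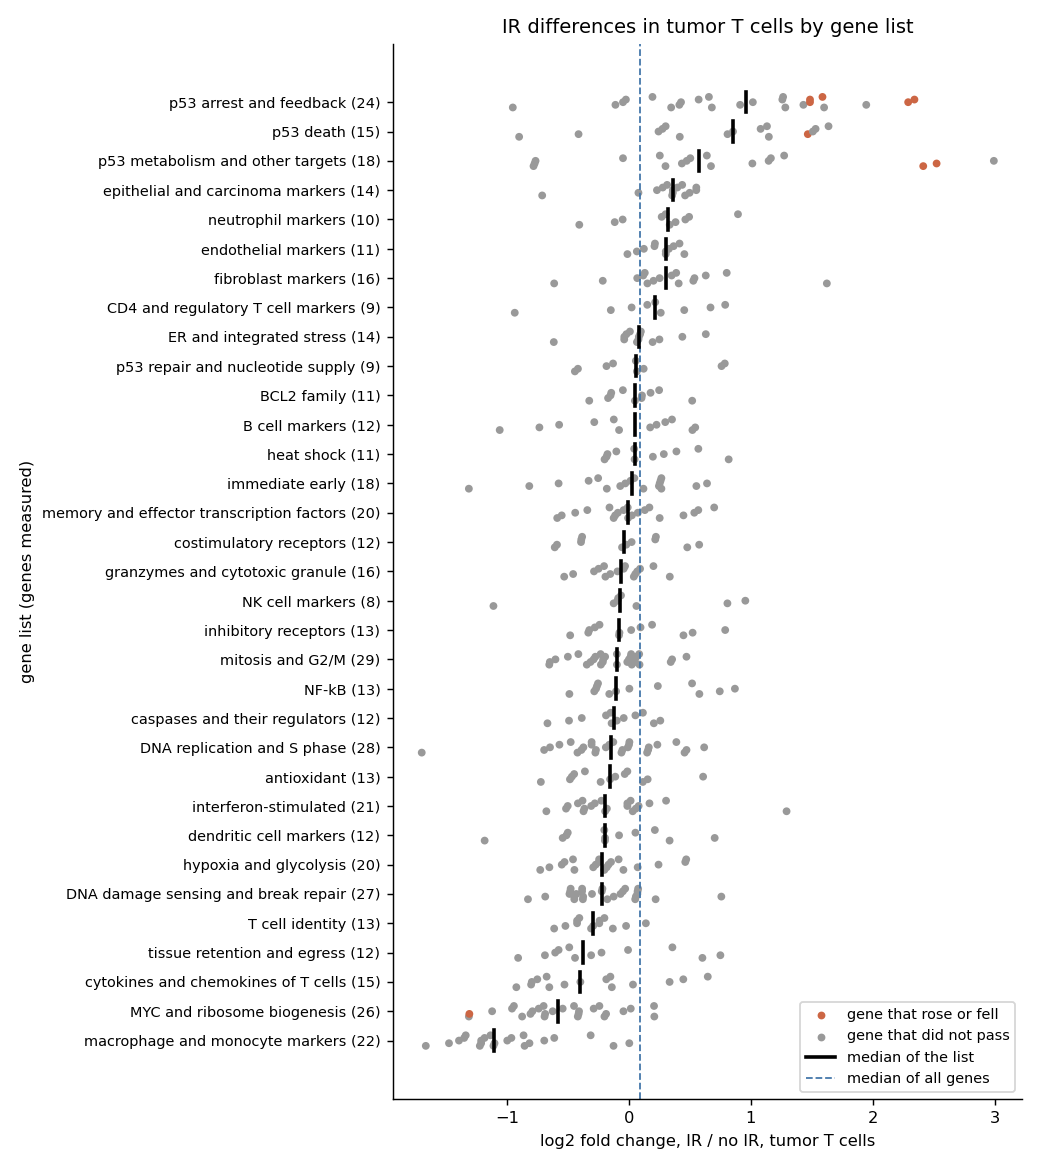
Log2 fold change (IR against no IR, tumor T cells) of each gene in 33 lists, with the number of genes measured in parentheses; points are genes, black bars list medians, and the dashed line the median of all genes, 0.09. The p53 lists of arrest, death and metabolism lie furthest to the right and the macrophage and MYC lists furthest to the left, and orange points, the genes that passed, occur in 4 lists.

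The 10 lowest values among genes with an unadjusted p under 0.05 and a mean level above the lower quartile ran from -2.35 to -1.67, and 0 of the 10 passed on 8 arrays. *Mgl2*, a lectin of macrophages and dendritic cells, read 7.76 and 9.93 without IR and 5.71 and 7.28 with IR (-2.35, adjusted p = 0.300), and *Mmp12*, the macrophage elastase, read 8.39 and 9.61, then 5.58 and 7.94 (-2.24, adjusted p = 0.297). *Clec5a*, a lectin receptor of myeloid cells (-1.81), and *Mrc1*, the mannose receptor (10.45 and 11.35, then 8.38 and 10.08; -1.67), likewise had replicates about 1 or more apart in 1 or both groups. These 4 did not pass on the tumor arrays alone either.

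The other 6 of the 10, *Ung* among them, passed on the tumor arrays alone. *Hpgd*, which degrades prostaglandins, read 8.64 and 8.53 without IR and 6.07 and 7.20 with IR (-1.95, adjusted p = 0.216 on 8 arrays). *Ccl1*, a chemokine, read 10.49 and 10.84, then 8.76 and 8.96 (-1.80, adjusted p = 0.290), and *Atp2b4*, a calcium pump of the plasma membrane, read 7.36 and 7.23, then 5.81 and 5.38 (-1.70, adjusted p = 0.255). *Pilra*, a receptor of myeloid cells, had -1.89 and *Ear3*, a ribonuclease of the eosinophil-associated family whose near-identical members its probe set may also read, had -1.88. Of the 10 genes, *Mrc1* alone is in the list of macrophage and monocyte markers and *Ung* in that of replication, and the other 8 are in no list.

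Of the 22 macrophage and monocyte markers 0 rose and 0 fell, 10 had an unadjusted p under 0.05 (against 16.6% of all genes), 21 were below 0 with a median of -1.11, 2 passed downward on the tumor arrays alone and 5 with array weights. For 14 of the 22 both IR arrays lay below both arrays without IR, against 26% of all genes and 43.6% of those brighter than the median gene. In LN T cells the median of the same list was 0.05. The list mean there was 6.66 and 7.24 without IR and 6.85 and 7.10 with IR, far below its level on the tumor arrays. The 2 medians therefore come from unlike levels and do not show a difference between tissues.

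Of 13 T cell identity genes 12 had a value below 0, with a median of -0.29 (-0.01 where the arrays are scaled to these genes), and 0 passed (2 at an unadjusted p under 0.05 by limma, 0 on the tumor arrays alone). Among them *Cd3e*, part of the receptor complex, read 12.59 on both arrays without IR and 12.24 and 12.14 with IR. Endothelial and epithelial markers leaned upward, with 0 past the test: 10 of 11 endothelial and 13 of 14 epithelial genes were above 0, with medians of 0.30 and 0.36 and list means of 5.78 to 6.87 on the tumor arrays. An unadjusted p under 0.05 by limma was reached by 1 of the 11 and 6 of the 14. With cyclic loess the 2 medians were 0.11 and 0.24 (0.03 over all genes), and with T cell scaling 0.59 and 0.64 (0.37 over all genes). The epithelial gene below 0 was *Cdh1*, far brighter than its list mean on the tumor arrays. It read 10.21 and 10.66 without IR and 9.38 and 10.07 with IR (-0.71, adjusted p = 0.369). *Cldn3*, the brightest epithelial gene over the 8 arrays, had 0.55 (adjusted p = 0.280). Of 12 B cell, 10 neutrophil, 12 dendritic cell, 8 NK cell and 9 CD4 and regulatory T cell markers 0 passed by limma (1, 1, 0, 1 and 2 at an unadjusted p under 0.05), and on the tumor arrays alone 1 B cell marker did. Genes at low levels leaned upward across the arrays. The median log2 fold change was 0.22 among genes dimmer than the median gene, 81.1% of them above 0, and -0.09 among the brighter ones, 38.3% of them above 0. The part of this slope in the values of the lists was not tested, and the genes that rose lay well above it.

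**Figure D5:**
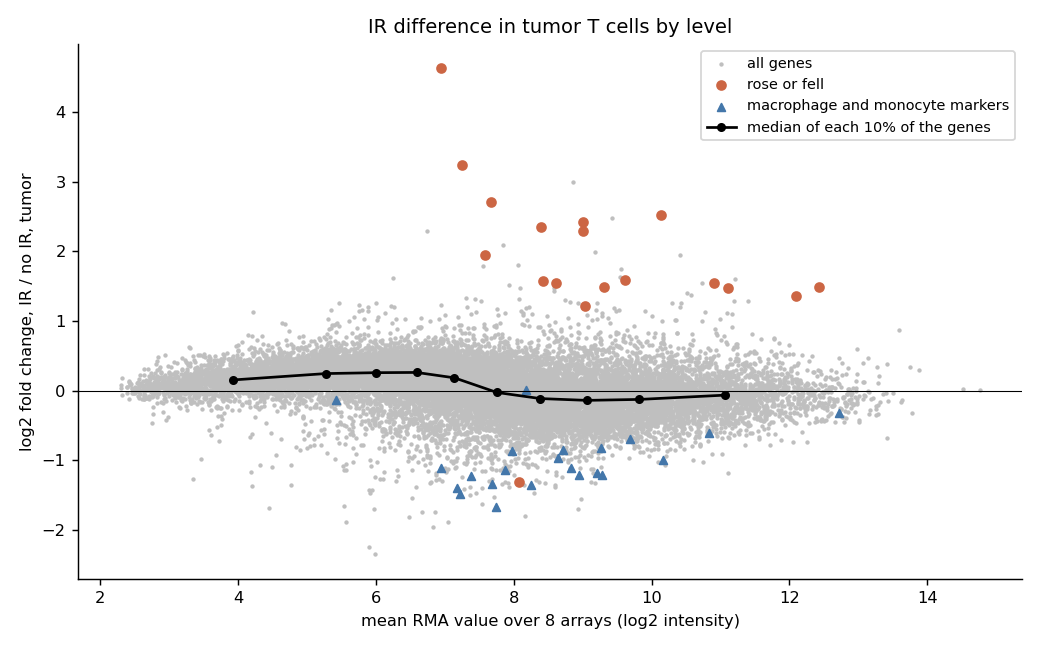
Log2 fold change (IR against no IR, tumor T cells) against the mean RMA value over 8 arrays (log2 intensity) for all genes (grey), the 18 genes that rose or fell (orange), the macrophage and monocyte markers (blue triangles) and the median of each 10% of the genes by level (black line). The medians run from 0.16 in the dimmest 10% through 0.26 to -0.14 and -0.06 among bright genes, a range far smaller than the differences of the orange genes.

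Of the 17 genes that rose in tumor T cells, 15 also rose in LN T cells, where IR raised 143 genes (0.786%) and lowered 48 (0.264%), and *Pprc1* fell there too (-1.35). *Sac3d1* (0.75 in LN, adjusted p = 0.0990) was one exception and *Tnn* (-0.04) the other. The rise was the smaller one in tumor for 12 of the 17. *Phlda3* rose by 2.29 in tumor and 4.12 in LN, *Sesn2* by 1.49 and 3.02, whereas *Ccng1* rose by 1.49 and 1.50 and *Celf5* by 4.63 and 4.31. *Plk2*, a stress kinase, had 1.26 in tumor, which did not pass, and rose by 3.33 in LN. Its mean was 8.94 in tumor and 7.18 in LN without IR, and 10.20 and 10.51 with IR. For *Phlda3* these means were 7.98 and 6.82, then 10.27 and 10.94. *Sesn2* in LN read 8.29 and 8.02 without IR, near its tumor values, and 11.36 and 10.99 with IR. The part of the level without IR in the smaller rises was not tested.

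The test of the difference between tissues, tumor effect minus LN effect in the same limma fit, passed for 0 genes (0%), with 1024 (5.63%) at an unadjusted p under 0.05 and a smallest adjusted p of 0.249. It was 1.61 for *Tnn* (unadjusted p = 7.93e-05, adjusted p = 0.316) and -1.83 for *Phlda3* (adjusted p = 0.328). *Crem*, a cAMP-responsive transcription factor, had the largest one in size, -2.71 (adjusted p = 0.249): it read 9.37 and 9.39 without IR and 9.83 and 9.34 with IR in tumor T cells, and rose by 2.92 in LN. The other 9 of the 10 largest differences at an unadjusted p under 0.05 were also below 0, from -2.54 to -2.24. They belonged to *Dennd4a*, *Ifngr2*, *Gcnt2*, *Dapk1*, *Gda*, *Ear3*, *Marcks*, *Pilra* and *Agrn* (adjusted p = 0.474 to 0.782). In *Agrn* (0.47 in tumor, 2.71 in LN), *Dennd4a* (-0.22 and 2.32) and *Gcnt2* (-0.18 and 2.27) the LN value was the larger in size. In *Pilra* (-1.89 in tumor, 0.37 in LN) and *Ear3* (-1.88 and 0.40) the tumor value was the larger, and it lay below 0. *Ifngr2* (-1.28 and 1.26), *Marcks* (-1.09 and 1.18), *Dapk1* (-0.78 and 1.61) and *Gda* lay below 0 in tumor and above 0 in LN. A difference below 0 was thus not always a smaller rise in tumor. In LN *Ear3* lay under the lower quartile of all probe sets (5.54) on every array. *Dapk1* (5.16 and 5.44) and *Gda* (5.18 and 4.54) did so there without IR, so the differences of these genes have no exact size. *Fosl2*, an AP-1 subunit, had 0.64 in tumor and rose by 2.74 in LN (difference -2.10, adjusted p = 0.316). Its mean was 9.82 in tumor and 7.49 in LN without IR, and 10.47 and 10.24 with IR. *Crem* in LN likewise started lower than in tumor, with a mean of 7.67 without IR and 10.59 with IR. Without replicate 1 of the LN arrays with IR 770 genes passed this test, and without replicate 2 of them 2 did, so its count rests on those arrays.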

How the data were processed

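Each of the 8 arrays (an Affymetrix whole-genome mouse array) measured RNA of sorted T cells. The authors scanned the arrays and processed them with RMA (background correction, quantile normalization and summary of each probe set) and deposited log2 values, which were used without further scaling; no source used here gives a version of RMA. The annotation of the platform named 1 gene for 34945 probe sets, several for 932 and none for 9160; 41 of 554 listed genes had no probe set named here and were not analysed.

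limma 3.58.1 (R 4.3.3) fitted 4 groups by least squares to 35877 annotated probe sets, with empirical Bayes moderation and Benjamini-Hochberg adjustment over all of them. The methods of the study name a robust fit intersected with SAM; with 2 arrays a group, least squares was used, the robust fit is an alternative, and SAM was not run. The fit was tested on simulated data in which each probe set had the same spread on every array and the arrays varied independently. The arrays here differed in spread and deviated together by number within a tissue, which that test does not cover. No column of another series was used. P-values measure the spread between arrays of pooled cells; the design text describes 2 experiments, and whether the replicate number marks the experiment is not stated.

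The genes to be named were those that changed, the 10 largest rises and falls at an unadjusted p under 0.05, members of the p53 lists, up to 4 members of each other list and its brightest, the 10 largest differences between tissues, and genes of the sort or the study's text. The comparison, lists and tests were chosen with earlier results of these data known. RefSeq (GRCm38.p6) supplied promoter windows and names. The alternatives were a robust fit, array weights, the tumor arrays alone, a replicate block, a mean-variance trend, other thresholds, the most variable probe set, leaving out the dimmer 50% of probe sets, scaling to T cell identity genes, cyclic loess and leaving out each array; the tumor arrays alone with the block were added after seeing the data.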

Additional observations from a re-analysis of the deposited data

Results flagged for a closer look

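Of the 9160 probe sets for which the annotation used here names no gene, 3 changed with IR in tumor T cells (1 rose and 2 fell), outside the count of genes. The probe set that rose read 8.95 and 9.42 without IR and 12.41 and 12.11 with IR (log2 fold change 3.08, adjusted p = 0.0355 by limma over 45037 probe sets) and rose by 4.93 in LN T cells. The probe sets that fell read 8.99 and 8.89 against 7.17 and 7.43 (-1.64, adjusted p = 0.083), and 7.04 and 7.02 against 5.44 and 5.11 (-1.76, adjusted p = 0.042). In LN T cells the first of these had -0.11, and the second fell there too (-1.18, adjusted p = 0.0491 by limma). Which transcripts they read was not analysed here.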

How the results depend on the processing

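The number of genes that IR changed in tumor T cells depended on the fit. From 18, it was 177 by robust regression, 200 with array weights, 173 with the 4 tumor arrays alone, 38 with a replicate block or with scaling to T cell identity genes, and 10 at an adjusted p under 0.05. For p53 targets the 8 became 26, 26, 26, 13, 17 and 5. The tumor arrays alone with the block, added after seeing the data, gave 256 (110 rises and 146 falls) and 26. Rises and falls numbered 17 and 1, against 103 and 74 by robust regression, 104 and 96 with array weights, 27 and 11 with the block and 14 and 0 with the trend. Differences between tissues numbered 0, 18 by the robust fit and 1 with a mean-variance trend. Genes changed in LN T cells numbered 191, and 504, 69, 505, 488 and 100 by robust regression, array weights, the replicate block, T cell scaling and the stricter threshold. Leaving out 1 array gave 0 to 90 genes, 0 to 23 p53 targets, 0 to 770 differences and 67 to 1789 LN genes; the 0 for genes and for p53 targets came without any 1 tumor array, and the 90 and 23 without either LN array with IR; the 770 and 1789 came without the LN array with IR of replicate 1. Fewer arrays also leave fewer degrees of freedom, and the cause of these changes was not tested. The other alternatives moved these counts by at most 1.5 times, and all 18 genes kept their direction under every alternative that tested them. T cell scaling moved the median over all genes from 0.09 to 0.37, with 38 rises and 0 falls; cyclic loess gave 22 and 3.

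Arrays of the same number deviated together within a tissue (correlation 0.431 in tumor, 0.430 in LN) and not across tissues (0.069 and -0.137), and with 2 pairs a tissue the pairing was not settled. Values that changed sign were *Btg2* (0.17 with T cell scaling), *Ckap2* (0.014 with cyclic loess, 0.24 with T cell scaling), *Ifng*, *Dennd4a* and *Gcnt2* (0.14, 0.060 and 0.11 with T cell scaling) and *Mcl1* (-0.37 with the most variable probe set). When 1 array was left out, *Btg2* ranged from -0.35 to 0.13, *Ckap2* from -0.098 to 0.0019, *Crem* from -0.042 to 0.45, *Gcnt2* from -0.95 to 0.60, *Gda* from -2.11 to 0.11, *Ifng* from -0.37 to 0.087, *Mcl1* from -0.12 to 0.34, *Pcna* from -0.00425 to 0.12 and *Rrm2b* from -0.00905 to 0.14. None of them had passed. Dim levels without IR limit the folds of *Celf5* and *1700007K13Rik*.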
